A study of Homo sapiens with 2 samples.

Results

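The genes at the end of the long arm of chromosome 3, from 190 Mb to the telomere (hg38), were compared between 2 cultures of the established human pancreatic cancer line MIA PaCa-2. One culture was labelled sgGFP and wild type (WT), and carried a guide against GFP, a protein that human cells lack. The other was labelled sgTPST2 and TPST2 KD, and carried a guide against TPST2, a Golgi enzyme that adds sulfate to tyrosines. Both were otherwise the same line, each condition was 1 library of total RNA, and the labels do not say whether a culture was a clone or a pool. The genes were chosen by position. The deposited table had to place the gene's locus at or after 190 Mb with the status OK (tested by the authors) and a mean over the libraries of at least 5 FPKM (fragments per kilobase of transcript, relative to the depth of the library). Small RNA genes, genes with clone-based names and HES1 were left out. Of 58698 listed genes, 197 start in this stretch and 37 met the rule, 34 of them protein-coding. The stretch was picked because its genes were already known to be higher in sgTPST2, so the differences below are descriptions and carry no test.

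The band 3q29 at this end of the chromosome is known from a recurrent microdeletion that affects brain development, and gains of the long arm of chromosome 3 are common in squamous carcinomas. Its genes share no single pathway. They include the receptor that brings iron into cells, a ribosomal protein, a subunit of the nuclear cap-binding complex, a RAC- and CDC42-activated kinase and a ubiquitin ligase of the DNA damage response. What they have in common is their place on the chromosome.

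Many of these genes start in GC-rich DNA, and some are arranged head to head, so that 1 short stretch lies between the starts of a pair. The stretches below are shown because they lie before genes with different outcomes. NCBP2 and NCBP2-AS2 were both higher in sgTPST2, as were PAK2 and SENP5. IQCG was higher, with LMLN nearly level. TFRC and BDH1 were both slightly lower. ATP13A3 and DLG1, the members with the lowest differences, are not shown. The stretches are RefSeq sequence of build GRCh38.p14, written 5′ to 3′, and they overlap no exon of GENCODE release 29. Capitals mark the GC box, GGGCGG or its reverse complement CCGCCC, counted without overlap.
Between NCBP2 and NCBP2-AS2 (chr3:196942598-196942622, plus strand): ggacccaatccgaGGGCGGcgtgtc
Between IQCG and LMLN (chr3:197960143-197960199, plus strand): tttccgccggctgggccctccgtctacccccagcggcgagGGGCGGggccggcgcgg
Upstream of PAK2 (chr3:196739657-196739856, plus strand): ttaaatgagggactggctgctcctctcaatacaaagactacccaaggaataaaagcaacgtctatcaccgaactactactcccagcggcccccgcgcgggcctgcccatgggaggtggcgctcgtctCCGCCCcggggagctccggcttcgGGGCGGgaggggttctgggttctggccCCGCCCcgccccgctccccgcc
Upstream of SENP5 (chr3:196867720-196867855, plus strand): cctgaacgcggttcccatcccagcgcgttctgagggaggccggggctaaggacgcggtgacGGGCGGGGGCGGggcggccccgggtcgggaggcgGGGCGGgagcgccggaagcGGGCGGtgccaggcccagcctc
Upstream of TFRC (chr3:196082190-196082290, minus strand): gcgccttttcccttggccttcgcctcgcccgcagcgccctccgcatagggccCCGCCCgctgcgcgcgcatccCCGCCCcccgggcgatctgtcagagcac
Upstream of BDH1 (chr3:197573344-197573543, minus strand): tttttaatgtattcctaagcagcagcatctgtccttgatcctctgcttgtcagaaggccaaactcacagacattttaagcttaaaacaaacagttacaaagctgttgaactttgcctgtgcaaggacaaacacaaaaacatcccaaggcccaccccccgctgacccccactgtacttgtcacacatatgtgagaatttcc
The GC box thus occurs 3 times before PAK2, 4 times before SENP5 and 2 times before TFRC, whose differences had opposite signs, and it does not occur in these letters before BDH1. Over the RefSeq promoter windows, from 250 bases before to 50 after a gene's start, 33 of the 37 genes had an entry. The GC box (either strand) was in 75.8% of them, against 67.3% of the 49 matched genes from 170 to 190 Mb, 72.3% of the 7364 matched genes past the same filters and 44.6% of all 27305 promoters. Median GC content was 69.7% in the 33 windows and 65.3% in the 7364. The TATA box TATAAA was in 6.06% of the 33 windows and in 4.89% of the 7364. The box CCAAT was in 30.3% and 38.0% of them, and the ETS factor motif CCGGAAG in 15.2% and 23.3%. These matches describe the letters and were not tested as sites.

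The library labels were checked on TPST2 itself (chromosome 22, 26521983 to 26596717), which stood at 8.46 FPKM in sgGFP and 1.92 in sgTPST2. Its difference, log2((sgTPST2 + 1)/(sgGFP + 1)), the scale used for all differences and fold counts, was -1.70. From the steps between low values, 1 FPKM on a transcript of 1 kb was worth about 41.8 fragments in the control and 47.7 in the TPST2 library. With 1 library per group, no spread between replicates exists and no p-value of this work is given. Markers of the epithelial origin of the line were mixed. KRT8, KRT18 and KRT19 were at 189 to 583 FPKM in sgGFP and at 12.8 to 85.3 in sgTPST2, whereas KRT7 and CDH1 stayed under 1 FPKM and EPCAM is listed at 0 in both libraries. The 4 leukocyte markers summed to 3.49 FPKM in sgGFP and 1.51 in sgTPST2, nearly all of it CD68 (3.32 and 1.51). CD3E was listed at 0 in both. The 4 endothelial markers summed to 3.10 and 0.282, nearly all of it CDH5 (2.93 and 0.277), with PECAM1 and KDR at 0. The 4 fibroblast markers summed to 0.0450 and 0.220 FPKM, with DCN and LUM at 0, and all acinar and islet markers were at 0 but for CEL (0.366 and 0.426 FPKM). In bulk RNA, fewer cells of a type and less RNA per cell cannot be told apart. The part of the keratin change in the differences below was not tested.

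Of the 37 genes, 33 were higher in sgTPST2 and 4 lower, and their median difference was 0.33, or 1.26-fold. Over all 8822 genes past the same filters the median was 0.00, and 50.4% were higher. By at least 1.2-fold, 24 of the 37 were higher, where 12.9% of all genes were, and 2 were lower, where 13% of all genes were. Few differences were large. By at least 1.5-fold, 3 genes were higher (background 2.54%) and 0 lower (background 4.16%). The 37 differences had quartiles of 0.16 and 0.42, and they ranged from -0.39 to 0.78. As the genes were chosen for this contrast, nothing is read from these shares beyond their size.

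**Figure D1:**
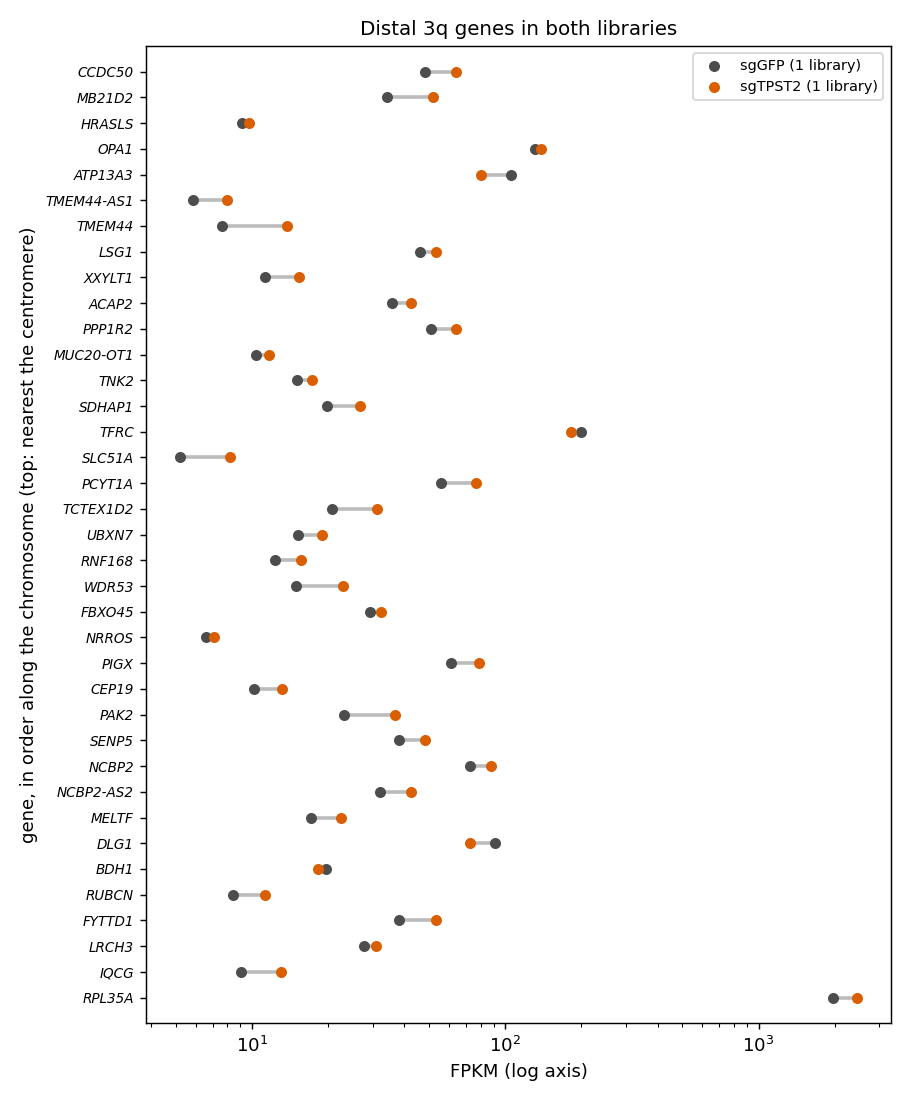
Level of each of the 37 distal 3q genes in sgGFP (grey) and sgTPST2 (orange), in FPKM on a log axis, in order along the chromosome. Each point is 1 library. In 33 rows the orange point lies to the right, and in ATP13A3, TFRC, DLG1 and BDH1 it lies to the left.

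Counting error was small beside most of these differences. For 1 kb of transcript, the exact (Clopper-Pearson) 95% interval of the ratio lay above 1 for 30 genes and below 1 for 3. This ratio, also where it is given for single genes below, is the plain one without the added 1. The interval held 1 for HRASLS, MUC20-OT1, NRROS and BDH1. The longest transcript was at least 1 kb in 35 of the 37, TCTEX1D2 and NCBP2-AS2 being the exceptions. Such intervals cover counting error only and say nothing of variation between cultures. They were also clear of 1 for most of the 57 genes from 170 to 190 Mb, some above it and some below. Examples above 1 were CLDN11 (1.15 to 1.22) and EIF4A2 (1.22 to 1.26). Examples below 1 were ECT2 (0.802 to 0.862) and EIF4G1 (0.845 to 0.890). The interval held 1 for others, such as NDUFB5 (0.98 to 1.04). The share over all genes was not counted, so an interval clear of 1 is not read as a property of the members. In the authors' deposited table, 0 of the 37 genes passed q = 0.05 (0.635% of all 8822 did). The targeted gene TPST2 and the left-out HES1 did not pass it either, so nothing is read from this 0. The smallest p there was 0.0762, for MB21D2, and every member had q = 0.99965.

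The genes for RNA handling and ribosome production were all higher in sgTPST2. RPL35A, a protein of the large ribosomal subunit, was the most abundant member, with 1969 FPKM in sgGFP and 2440 in sgTPST2 (difference 0.31). Its reads may be shared with processed copies elsewhere in the genome. LSG1, a GTPase of the last steps of large-subunit maturation, stood at 45.9 and 53.3 FPKM (0.21). NCBP2, the small subunit of the nuclear cap-binding complex, stood at 72.5 and 87.9 FPKM (0.27), and FYTTD1, an mRNA export adaptor, at 38.2 and 53.5 (0.48). The 4 genes of this list thus had a median of 0.29, with 3 at least 1.2-fold higher and 0 lower.

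Genes elsewhere with related functions stood nearer to 0. The 14 other large-subunit ribosomal protein genes of the list had a median of -0.09, and 0 were 1.2-fold higher. Their widest difference was in RPL37A on chromosome 2, at 3930 FPKM in sgGFP and 2980 in sgTPST2 (-0.40), followed by RPL3 (-0.18) and RPL11 (-0.14). The 11 other cap-binding and export genes had a median of -0.05, with DDX39B at -0.26, NXT1 at 0.18 and ALYREF at -0.14, and 0 were 1.2-fold apart. RPL35A, NCBP2 and FYTTD1 each lay above every gene of their list elsewhere. Since the stretch was picked as higher and the lists were chosen with earlier results known, nothing is read from these ranks.

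The ubiquitin and SUMO genes were also all higher. RNF168, the ligase that ubiquitinates histone H2A at DNA breaks, stood at 12.4 FPKM in sgGFP and 15.6 in sgTPST2 (0.31). SENP5, a SUMO protease, stood at 38.2 and 48.4 FPKM (0.33), and UBXN7, an adaptor of the segregase VCP, at 15.2 and 18.9 (0.30). WDR53, a WD-repeat protein, stood at 14.98 and 22.9 FPKM (0.58), the widest of the 5. FBXO45, a substrate receptor for ubiquitination, was nearly level at 29.2 and 32.2 FPKM (0.14). All 5 were higher, 4 of them by at least 1.2-fold, with a median of 0.31. The 8 other DNA damage ubiquitin genes past the filter had a median of 0.04, with RNF8 at -0.31, RNF169 at -0.23 and UIMC1 at 0.18. The 5 other SUMO proteases had a median of 0.02, with SENP7 at 0.26, SENP6 at -0.15 and SENP3 at 0.05.

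Signalling genes held some of the widest differences. PAK2, a kinase activated by the small GTPases RAC and CDC42, stood at 23.05 FPKM in sgGFP and 36.7 in sgTPST2, a difference of 0.65 (ratio 1.59, counting interval 1.47 to 1.72). Its relatives PAK1 (13.4 and 14.7 FPKM, 0.12) and PAK4 (9.96 and 10.1 FPKM, 0.02) were nearly level. CCDC50, which takes part in EGF receptor turnover, stood at 48.3 and 64.05 FPKM (0.40). PPP1R2, an inhibitor of protein phosphatase 1, stood at 51.0 and 64.1 FPKM (0.32). ACAP2, a GTPase-activating protein for ARF6, stood at 35.7 and 42.4 FPKM (0.24), and TNK2, a CDC42-associated tyrosine kinase, at 15.1 and 17.2 (0.18). All 5 were higher and 3 by at least 1.2-fold, with a median of 0.32. The cytokine co-receptor gene IL1RAP, in the same list, stood at 1.98 and 2.21 FPKM and so fell under the filter.

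Of the lipid and glycan genes, 4 passed the filter and all 4 were higher, 3 by at least 1.2-fold (median 0.40). PCYT1A, the rate-limiting enzyme of phosphatidylcholine synthesis, stood at 55.9 FPKM in sgGFP and 76.7 in sgTPST2 (0.45). PIGX, a subunit of the first mannosyltransferase of GPI anchor synthesis, stood at 60.9 and 79.1 FPKM (0.37). XXYLT1, which adds xylose to O-glucose glycans of Notch repeats, stood at 11.2 and 15.4 FPKM (0.42). HRASLS, a phospholipid acyltransferase, was nearly level at 9.11 and 9.78 FPKM (0.09). These lists differed elsewhere in the genome. The 13 other GPI synthesis genes had a median of -0.09, with PIGU at -0.28, PIGK at -0.24 and PIGP at -0.23. The 7 other phosphatidylcholine genes were all higher (median 0.20, of which 2 by at least 1.2-fold), with CHKA at 0.29, CEPT1 at 0.28 and SLC44A2 at 0.24.

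Genes of the cilium and axoneme were higher, all 3 by at least 1.2-fold (median 0.48). TCTEX1D2, a light chain of the ciliary dynein, stood at 20.8 FPKM in sgGFP and 31.2 in sgTPST2 (0.57). IQCG, an axonemal protein, stood at 9.10 and 13.04 FPKM (0.48), and CEP19, a centriolar protein, at 10.2 and 13.2 (0.34). Both the IQCG and the CEP19 gene overlap a more abundant gene on the other strand, RPL35A and PIGX. How strand was treated in counting is unknown here, so their reads may be shared.

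The members in which the 2 libraries went the other way were the iron receptor, a transporter, a scaffold and a mitochondrial enzyme. TFRC, the transferrin receptor that takes up iron, stood at 199.7 FPKM in sgGFP and 182 in sgTPST2 (-0.13). ATP13A3, a polyamine-transporting ATPase, stood at 105.7 and 80.5 FPKM (-0.39), the lowest difference among members. DLG1, a scaffold of cell polarity, stood at 91.5 and 72.7 FPKM (-0.33), and BDH1, the ketone body dehydrogenase of mitochondria, at 19.5 and 18.2 (-0.10). ATP13A3 and TFRC each lie between higher members, whereas DLG1 and BDH1 are neighbours in the order of members. ATP13A3 and DLG1 were the 2 members at least 1.2-fold lower.

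Around them, genes of like function also differed among themselves. MELTF, an iron-binding surface protein, stood at 17.1 FPKM in sgGFP and 22.5 in sgTPST2 (0.38). SLC51A, a subunit of a bile acid and steroid exporter, stood at 5.22 and 8.22 FPKM (0.57). Its gene overlaps the more abundant PCYT1A on the other strand, so its reads may be shared. OPA1, the GTPase of mitochondrial inner membrane fusion, was nearly level at 131 and 139 FPKM (0.08), and LRCH3, a leucine-rich repeat protein, stood at 27.8 and 30.9 (0.15). NRROS, which tethers latent TGF-beta, stood at 6.61 and 7.12 FPKM (0.09). Its gene lies almost wholly within the more abundant PIGX on the same strand, so its reads may be shared. NRROS was the 1 member among the secreted and mucin genes of the stretch, of which the other 7 were under the filter.

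Elsewhere, the 13 other iron genes past the filter had a median of 0.18, and 6 were at least 1.2-fold higher against 1 lower. HMOX1, which breaks down haem, stood at 8.47 and 13.7 FPKM (0.63), the ferrireductase STEAP3 at 10.8 and 7.31 (-0.51), and FBXL5, an iron sensor, at 23.5 and 32.6 (0.46). The 11 other genes of mitochondrial fusion and the inner membrane had a median of -0.11. The widest were DNM1L (109.7 and 53.8 FPKM, -1.02), MFF (-0.59) and YME1L1 (0.32), on chromosomes 12, 2 and 10. The 7 other polarity scaffolds had a median of 0.12, with CASK at 0.52, PARD3 at 0.27 and LLGL1 at 0.25, so DLG1 lay below every one of them. Over all 91 partner genes past the filter, the median was -0.01 and 12.1% were at least 1.2-fold higher.

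**Figure D2:**
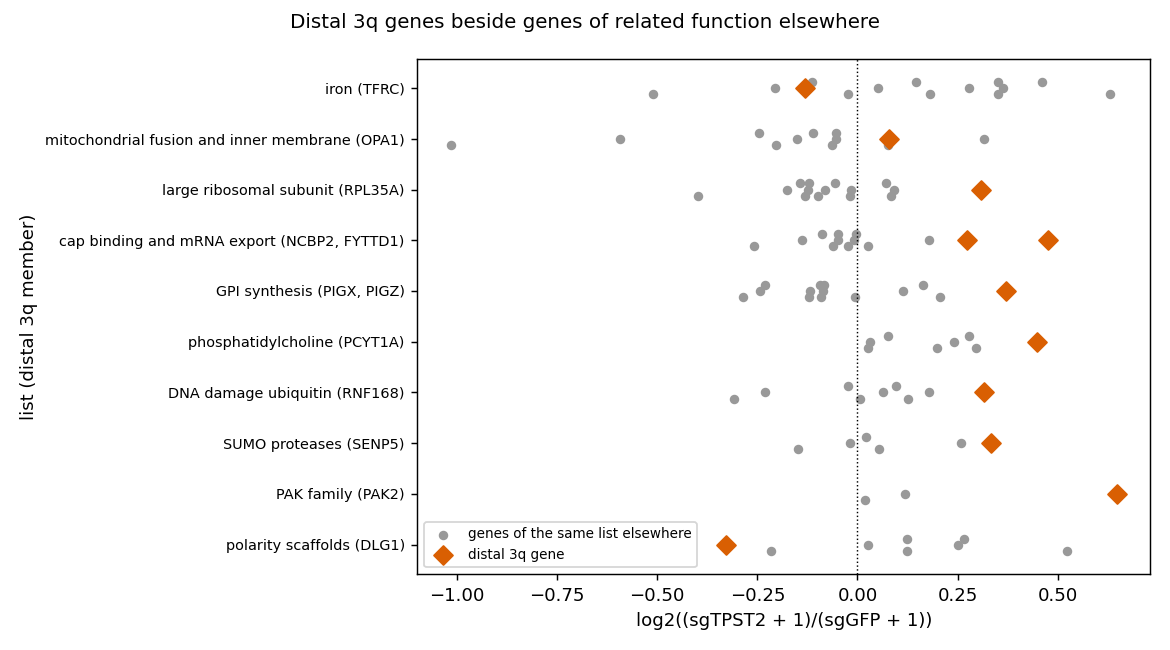
Difference of distal 3q genes (orange diamonds) beside genes of the same list elsewhere in the genome (grey points), as log2((sgTPST2 + 1)/(sgGFP + 1)). RPL35A (0.31), NCBP2 (0.27), FYTTD1 (0.48), PIGX (0.37), PCYT1A (0.45), RNF168 (0.31), SENP5 (0.33) and PAK2 (0.65) lie right of the grey points of their rows, and DLG1 (-0.33) lies left of them. PIGZ was under the filter and is not drawn. The stretch was picked as higher in sgTPST2, so nothing is read from the order of the points.

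The remaining 7 members belong to no list. TMEM44, a transmembrane protein gene, had the widest difference of all members, with 7.61 FPKM in sgGFP and 13.8 in sgTPST2 (0.78, ratio 1.81, counting interval 1.58 to 2.08). Its antisense gene TMEM44-AS1, which overlaps it, stood at 5.88 and 7.98 FPKM (0.39), and these reads may be shared as well. MB21D2, of the Mab-21 domain family, stood at 34.0 and 51.7 FPKM (0.59). RUBCN, a brake on autophagy, stood at 8.45 and 11.3 FPKM (0.38). It overlaps FYTTD1 on the other strand. The pseudogene SDHAP1 stood at 19.8 and 26.8 FPKM (0.42), and its reads may be shared with its parent gene SDHA and with other copies. The long non-coding RNA MUC20-OT1 stood at 10.3 and 11.6 FPKM (0.16), and NCBP2-AS2, which codes for a small protein, at 32.0 and 42.4 (0.40). MUC20-OT1 overlaps the pseudogene SDHAP2 on the same strand, so its reads may be shared.

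Along the chromosome, the higher genes formed 4 unbroken stretches of members. From CCDC50 to OPA1 all 4 were higher, then came ATP13A3. From TMEM44-AS1 to SDHAP1 all 9 were higher (median 0.32), then came TFRC. From SLC51A to MELTF (196211487 to 197029816) all 15 were higher, with a median of 0.37. DLG1 and BDH1 followed, and the last 5, from RUBCN to RPL35A, were higher again (median 0.38). HES1, a Notch target and transcriptional repressor, lies between OPA1 and ATP13A3 and is no member by the rule. It stood at 16.1 FPKM in sgGFP and 4.15 in sgTPST2 (-1.74), lower than any member, and with it the median of the stretch was 0.33.

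Neighbours that share a start were not always alike. NCBP2 and NCBP2-AS2, which start 25 bases apart on opposite strands (sequence above), had close differences of 0.27 and 0.40. WDR53 and FBXO45, whose first bases overlap by 64 on opposite strands, had 0.58 and 0.14. IQCG had 0.48, and LMLN, across 57 bases (sequence above), stood at 4.03 and 4.23 FPKM (0.06), just under the filter. By their RefSeq starts, CEP19 and PIGX also had overlapping promoter windows on opposite strands, and so had RUBCN and FYTTD1. Their differences were close, at 0.34 and 0.37 and at 0.38 and 0.48. The genes of both these pairs overlap, so their reads may be shared.

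**Figure D3:**
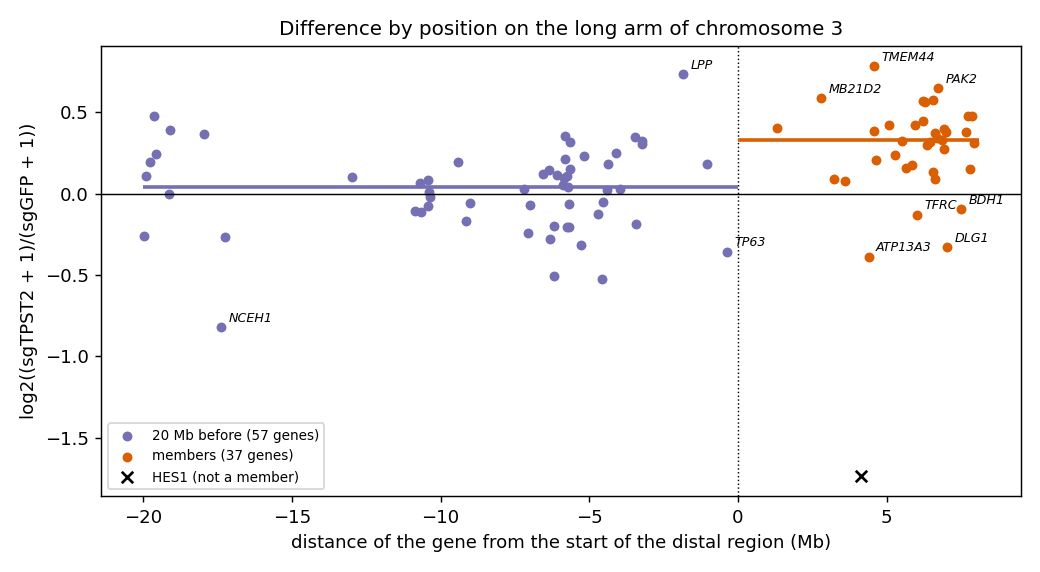
Difference, log2((sgTPST2 + 1)/(sgGFP + 1)), against the distance of each gene from the start of the distal stretch, for 37 members (orange), 57 genes from 170 to 190 Mb (purple) and HES1 (cross). Horizontal lines are the medians, 0.33 and 0.04. The members lie mostly above 0 and the genes before them on both sides of it.

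The stretch before it was nearly level as a whole. From 170 to 190 Mb, 57 genes passed the same filters, with a median of 0.04. Of these 34 were higher and 23 lower, 9 by at least 1.2-fold higher and 8 lower, close to the background of 12.9% and 13%. The medians of both stretches were 0.29 apart. The highest of the 57 were LPP, a focal adhesion protein (18.9 and 32.1 FPKM, 0.73), SKIL (0.47), EIF5A2 (0.39) and FNDC3B (0.37). The lowest were NCEH1 (35.8 and 19.8 FPKM, -0.82), the pseudogene RPL4P4 (-0.53), MAP6D1 (-0.51) and the epithelial transcription factor gene TP63 (-0.36). Known amplicon genes of band 3q26 were measured as well, and 11 of 14 passed the filter with a median of -0.08. Of the 21 genes of the recurrent 3q29 deletion 17 passed, all of them members. Their median was 0.33, with 12 at least 1.2-fold higher and 1, DLG1, lower. These values restate the choice of the stretch and are not separate from it.

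No sharp edge was seen at 190 Mb. In the 3 windows of 2 Mb that lead up to 190 Mb the medians were, in order, 0.06 (19 genes), 0.31 (5 genes) and 0.18 (3 genes). In the last 2 windows, which end at 198 Mb, they were 0.28 (10 genes) and 0.34 (23 genes), whereas the first window past 190 Mb held CCDC50 alone (0.40) and the next had a median of 0.09 (3 genes). Just outside, TP63 and TPRG1 (57.8 and 65.6 FPKM, 0.18) differed in sign. Just inside, CCDC50 and MB21D2 were both higher. The other 16 windows of 10 Mb on chromosome 3 with at least 10 genes had medians from -0.16 to 0.11. Windows with fewer genes had 0.17 (70 to 80 Mb, 3 genes), 0.27 (80 to 90 Mb, 5 genes, all higher) and 0.04 (90 to 100 Mb, 9 genes).

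Splits by level, genomic span and strand gave medians from 0.31 to 0.38. The 19 at or above the median level of 29.4 FPKM had a median difference of 0.31, and the 18 below it one of 0.38. The 19 genes spanning at least 50.4 kb and the 18 shorter ones both had 0.33. So did the 15 on the plus strand and the 22 on the minus strand. The 28 that overlap any listed gene on the other strand had 0.33, as had the 9 without such overlap, among them MB21D2, PPP1R2 and SENP5. Overlap on the same strand, as of NRROS with PIGX, was not part of this split. Across the 37 genes, Spearman rho of the difference was -0.32 with the length of the longest transcript. With the mean level it was -0.26 and with the span -0.13. Across the 57 genes from 170 to 190 Mb the values were 0.14, 0.07 and 0.01, so no trend is read from them. Over 8820 genes past the filters these rho values were -0.11, 0.03 and -0.13. They describe genes measured in the same 2 libraries, which are not independent replicates.

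Below the filter the pattern was weaker. Of 9 named genes with a mean from 1 to 5 FPKM, 6 were higher and 3 lower, with a median of 0.11. The tight-junction gene CLDN1 stood at 4.99 FPKM in sgGFP and 2.54 in sgTPST2 (-0.76), TM4SF19 at 2.29 and 1.35 (-0.49) and the GPI enzyme gene PIGZ at 2.13 and 3.65 (0.57). Another 11 tested genes stayed under 1 FPKM, and 118 of the 197 were not tested by the authors. Besides HES1, the rule left out 3 genes past the filter, the small RNA genes RNU6-42P and RNU4-89P, each listed at 0 in 1 library, and the clone-named pseudogene AC132008.2 (17.4 and 24.3 FPKM, 0.46). Around the filter, SLC51A and NRROS were the members closest above a mean of 5, and LMLN and CLDN1 the genes closest below.

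**Figure D4:**
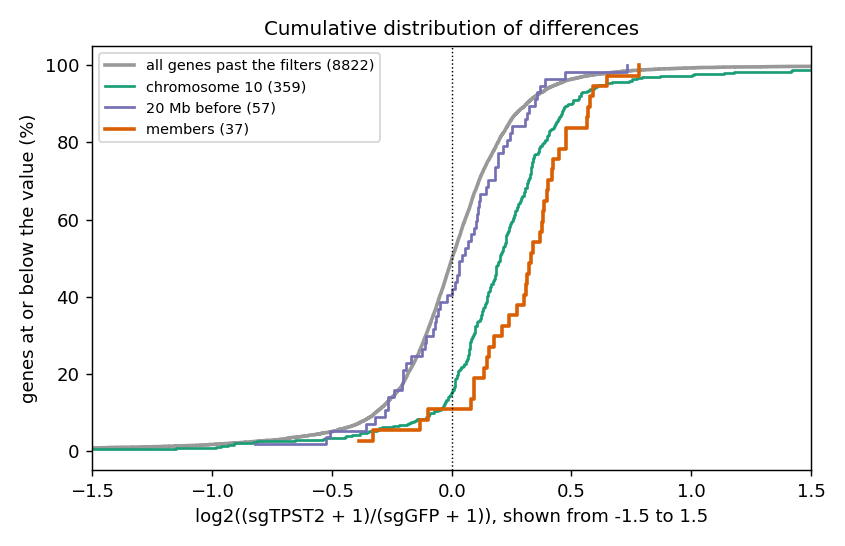
Cumulative share of genes (%) at or below each difference, log2((sgTPST2 + 1)/(sgGFP + 1)), for 37 members (orange), 57 genes from 170 to 190 Mb (purple), 359 genes of chromosome 10 (green) and all 8822 genes past the filters (grey). The member curve lies to the right, with its median at 0.33 against 0.04, 0.20 and 0.00.

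Other stretches differed between the same libraries in either direction. On chromosome 10, 359 genes had a median of 0.20, with 85.0% higher, where 89.2% of the 37 members were. Their quartiles were 0.07 and 0.34. The 104 genes from 190 to 230 Mb of chromosome 2 had a median of -0.33, opposite in sign and alike in size to that of the members, and the 106 genes of the short arm of chromosome 12 one of -0.88. All come from the same 2 libraries, and with 1 library per group the differences between these medians could not be tested.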

How the data were processed

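Total RNA libraries, 1 per culture, were stranded, per the labels' protocols. STAR and Cuffdiff with the build hg38 are named in the submitters' processing notes. Tool versions, annotation and strand setting were not given in the sources used here. Deposited value columns carry no unit and were read as FPKM, as Cuffdiff reports it. The authors' deposited p-value, q-value and test statistic (a score) were taken as given, and the deposited log2 fold change equals log2((sgTPST2 + 1)/(sgGFP + 1)) to within 2.1e-15.

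All 58698 identifiers and symbols matched GENCODE release 29 (GRCh38), which gave gene coordinates. Differences used a pseudocount of 1. Depth came from low values of genes with 1 transcript longer than 1500 bp: 91.1% (sgGFP) and 92.04% (sgTPST2) fell no further than 0.1 from a whole fragment count, with step and offset fitted on the same values. Python 3.11.15, pandas 2.3.3 and scipy 1.17.1 were used, and the median and counts were checked on simulated data. Members and lists were chosen with earlier results of these data known. Named genes are TPST2, all members, and the 4 highest and 4 lowest from 170 to 190 Mb. Up to 3 genes per partner list and the genes nearest the thresholds are named too. HES1, other genes below the filter and those the rule left out were named after their values were seen. So were CLDN11, EIF4A2, ECT2, EIF4G1 and NDUFB5, from 170 to 190 Mb.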

Additional observations from a re-analysis of the deposited data

How the results depend on the processing

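No paired analysis was possible because either group holds 1 library, which also means that no replicate can be omitted. The median of the distal 3q genes ran from 0.28 to 0.37 over 14 alternatives (pseudocounts, filters, scalings, gene types, HES1, overlaps and the start of the stretch), and that from 170 to 190 Mb from 0.04 to 0.09 over 11. By at least 1.2-fold, 19 of 37 members were higher with a pseudocount of 5 (9.57% of all genes), 25 of 37 with both libraries scaled to the same upper quartile (16.1%) and 31 of 57 with no filter on the mean (14.7%). Without genes that overlap another on the opposite strand it was 6 of the 9 members left, fewer because fewer genes entered. A start 4 Mb earlier was added after the data were seen. TPST2 was at -2.09 with a pseudocount of 0.1 and at -0.96 with 5, since a larger pseudocount shrinks the difference of low genes. The fragments behind a gene limit only counting precision, and variation between cultures is unknown.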
